A study of Mus musculus with 3 samples.

Results

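Mup3, Mup7, Mup11 and Mup17 encode major urinary proteins and are 4 of the 22 genes whose symbol is Mup and a number among the 32285 genes in the data. They had been chosen by their UMI level, since they led a group of hepatocyte nuclei of the normal diet (ND) mouse in earlier results from the same libraries. Their high level in ND hepatocytes is therefore how they were picked, and it is given below as a description with no test. All 4 were measured in all 3 libraries, and the other 18 Mup genes are given beside them.

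Single nuclei from frozen liver were sequenced for 1 ND mouse and 2 STZ-HFHC mice, with 1 library per mouse. All were male C57BL/6 J mice, and the methods do not state the age at which these livers were taken. The STZ-HFHC mice (STZ-HFHC 1 and STZ-HFHC 2) had received 0.2 mg of streptozocin, a toxin of the insulin-producing islet cells, under the skin at 3 days of age. They were then fed a high-fat and high-cholesterol Western diet from 4 weeks of age, as a model of steatohepatitis with fibrosis. The ND mouse was the only control, which leaves the comparison of the conditions without a test. The library names of the ND mouse and the STZ-HFHC mice also start with different codes of unstated meaning, so any difference in how the libraries were made cannot be told apart from the condition.

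Major urinary proteins are small secreted lipocalins, proteins that fold into a cup and carry hydrophobic molecules. Hepatocytes of adult male mice make them in quantity, and after passing through blood into urine they hold volatile pheromones and release them slowly. The Mup genes lie in a cluster of near-identical copies on chromosome 4. In male liver their transcription is known to depend on pulses of growth hormone, acting through its receptor, the kinase JAK2 and the transcription factor STAT5B, and it also responds to androgen, glucocorticoid, thyroid hormone and insulin. Mup20 encodes darcin, a pheromone-binding member that attracts females.

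After filtering, 28336 of 30989 barcodes were kept, with a median of 4068 UMIs (unique molecular identifiers, each counting 1 captured RNA molecule) in ND, compared with 3015 and 4027 in STZ-HFHC 1 and 2. Any 2 libraries shared between 29 and 32 barcodes. Clustering without Mup genes gave 23 clusters, of which 8, with 13249 nuclei, were called hepatocyte-like. Each of those 8 clusters held UMIs of all 12 hepatocyte markers, but so did each of the 23 clusters, so this detection separated no class. The class of the STZ-HFHC nuclei rests on weak evidence. Of the 12 markers, 7 were raised in cluster 0, 4 in cluster 1, 1 in clusters 9 and 18, and 0 in clusters 19 to 22, which were called hepatocyte-like because no other class had 3 raised markers there. In ND the markers stood out little, since albumin (Alb) was at 3282 UMIs per 1000000 UMIs (CPM) in hepatocyte-like nuclei and at 2464 CPM in all other named classes of the same library. In STZ-HFHC 1 Alb was at 2564 CPM in hepatocyte-like nuclei and 1256 CPM in the other named classes, and in STZ-HFHC 2 at 1903 and 1357 CPM. Hepatocyte-like nuclei of ND and of the STZ-HFHC mice fell almost wholly into different clusters, with ND nuclei in clusters 0, 1 and 9 and STZ-HFHC nuclei in clusters 19 to 22. The sum of all UMIs of a class was used as the denominator of each CPM.

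The 4 genes lie on the minus strand of chromosome 4 in GRCm38, the assembly also called mm10. In the GENCODE M21 annotation Mup7 (ENSMUSG00000073842) spans chr4:60066469-60070475, Mup11 (ENSMUSG00000073834) spans chr4:60658466-60662411, Mup17 (ENSMUSG00000096688) spans chr4:61591929-61595871 and Mup3 (ENSMUSG00000066154) spans chr4:62083476-62087342. No other annotated gene overlaps any of them. The 250 bases before each RefSeq start site (GRCm38.p6, minus strand, 5′ to 3′) are shown because all 4 genes were lower in STZ-HFHC and because they show how close 3 of the copies are. The windows are chr4:62087318-62087567 for Mup3, chr4:60070476-60070725 for Mup7, chr4:60662396-60662645 for Mup11 and chr4:61595833-61596082 for Mup17, and capitals mark the letters TATATAA, a form of the TATA box.
Mup3: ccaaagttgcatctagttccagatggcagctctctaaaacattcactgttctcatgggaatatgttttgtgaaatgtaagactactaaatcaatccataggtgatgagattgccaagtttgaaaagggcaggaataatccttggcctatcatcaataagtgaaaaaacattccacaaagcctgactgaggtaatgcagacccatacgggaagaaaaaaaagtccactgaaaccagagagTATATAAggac
Mup7: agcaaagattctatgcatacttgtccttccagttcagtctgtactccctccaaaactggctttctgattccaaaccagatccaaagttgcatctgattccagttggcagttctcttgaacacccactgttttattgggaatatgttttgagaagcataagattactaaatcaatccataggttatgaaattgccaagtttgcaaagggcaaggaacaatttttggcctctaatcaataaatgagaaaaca
Mup11: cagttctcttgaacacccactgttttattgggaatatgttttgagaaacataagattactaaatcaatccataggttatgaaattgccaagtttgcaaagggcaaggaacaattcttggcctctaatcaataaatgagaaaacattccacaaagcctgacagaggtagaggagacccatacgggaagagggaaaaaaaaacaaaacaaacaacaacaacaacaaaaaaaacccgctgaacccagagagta
Mup17: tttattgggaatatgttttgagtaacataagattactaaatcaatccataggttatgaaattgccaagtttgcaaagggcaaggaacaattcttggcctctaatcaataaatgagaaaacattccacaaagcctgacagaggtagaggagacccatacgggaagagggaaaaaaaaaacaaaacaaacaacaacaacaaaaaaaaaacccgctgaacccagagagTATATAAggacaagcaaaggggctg
The Mup11 and Mup17 windows were 99.6% identical over 226 aligned bases, and the Mup7 and Mup11 windows were 98.6% identical over 144. The Mup3 window stood apart, with 84.6% identity to Mup7, 86.5% to Mup11 and 87.6% to Mup17, and was closest to that of Mup21, at 93.4% over 244 bases. TATATAA occurred on either strand in 11 of the 14 Mup promoters that RefSeq gave and in 3.04% of all 32851 promoters of the same length. In Mup3 it began 11 bases and in Mup17 25 bases before the RefSeq start, and the Mup7 and Mup11 windows did not hold those letters. The Mup11 window ends within the stretch that runs into TATATAA in Mup17, and the Mup7 window ends before that stretch. Bases past the RefSeq start were not searched, so no lack of these letters in Mup7 or Mup11 is read from this. TTCNNNGAA, a form of the STAT motif found in 7.02% of all promoters, and TTGCNNAA, a form of the C/EBP motif found in 9.56%, occurred in 0 of the 14. These are matches of letters in a short window and say nothing of binding elsewhere.

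The transcripts are as alike as the promoters, which bears on every value of Mup7, Mup11 and Mup17. Of all 90-base windows of the longest coding transcript, 4.02% of Mup3 occurred unchanged in another gene, compared with 83.3% of Mup7, 84.8% of Mup11 and 63.2% of Mup17. In the last 300 bases, where reads of a 3′ method from spliced RNA mostly fall, the share was 0% for Mup3, 98.6% for Mup7, 39.3% for Mup11 and 11.4% for Mup17. Mup7 and Mup11 transcripts were 98.8% identical. Reads from such stretches cannot be given to 1 copy, so the values of Mup7, Mup11 and Mup17 are uncertain as values of single genes. The Mup3 transcript was nearly free of this limit, but introns were not compared, and whether intronic reads were counted is not given. Mup20 shared 0% of the windows in its last 300 bases but 40.8% of all windows, with the pseudogene Mup-ps19. Mup1, Mup2, Mup10, Mup14 and Mup22 shared 100% of the windows in their last 300 bases and Mup9 shared 50.7%, so their values below are uncertain as values of single genes too. Mup10 shared most with Mup22, and Mup2 with Mup14.

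Mup3 had the most counted UMIs of the 4 genes in every library and was far lower in both STZ-HFHC mice than in ND. In hepatocyte-like nuclei ND held 11748 of its UMIs, STZ-HFHC 1 held 572 and STZ-HFHC 2 held 1054. These were levels of 456 CPM (95% exact Poisson interval 448 to 465), 21.7 CPM (19.97 to 23.6) and 29.9 CPM (28.1 to 31.8), and all such intervals cover counting error only. Both STZ-HFHC libraries were low and neither interval came near that of ND. ND was 21.01-fold above STZ-HFHC 1 (19.3 to 22.9) and 15.2-fold above STZ-HFHC 2 (14.3 to 16.3), a mean log2 ratio of STZ-HFHC to ND of -4.16 ± 0.33 (SD, n = 2 mice).

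Mup11 was at 33.5 CPM in ND (31.3 to 35.8), 0.569 CPM in STZ-HFHC 1 (0.319 to 0.939) and 2.21 CPM in STZ-HFHC 2 (1.75 to 2.76). The STZ-HFHC mice themselves differed for this gene, and their intervals did not overlap. ND was 58.8-fold (35.4 to 106) and 15.1-fold (12.0 to 19.3) higher, and the mean log2 ratio was -4.87 ± 1.36 (SD, n = 2 mice).

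Mup17 was at 27.1 CPM in ND (25.1 to 29.2), 1.40 CPM in STZ-HFHC 1 (0.989 to 1.94) and 1.33 CPM in STZ-HFHC 2 (0.980 to 1.77). Its level was nearly the same in both STZ-HFHC mice, and the mean log2 ratio was -4.29 ± 0.06 (SD, n = 2 mice). That SD leaves out the counting error, which the intervals show to be larger. In the other named classes of STZ-HFHC 1 and 2 Mup17 was higher, at 2.91 and 3.86 CPM. Mup3 (36.6 and 42.4 CPM) and Mup11 (1.60 and 4.41 CPM) were also higher there. The STZ-HFHC levels of these genes are therefore not read as expression.

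Mup7 was counted 209 times in ND, but only 2 and 3 times in the STZ-HFHC mice, or 8.12 CPM (7.05 to 9.29), 0.0759 CPM (0.00919 to 0.274) and 0.0852 CPM (0.0176 to 0.249). The ratio of ND to STZ-HFHC was 107 (29.2 to 889) in one mouse and 95.3 (32.2 to 466) in the other, so its size is known only within wide limits.

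Per kilobase of gene, the ND levels were 118 CPM for Mup3, 8.48 for Mup11, 6.86 for Mup17 and 2.03 for Mup7, an order in which Mup11 and Mup17 lay closest. Reads from stretches that copies share cannot be given to 1 gene, and Mup3 shares far fewer than the others. This is therefore an order of counted UMIs and is not read as an order of expression. Summed, the 4 genes were at 525 CPM in ND (516 to 534), 23.8 CPM in STZ-HFHC 1 (21.9 to 25.7) and 33.6 CPM in STZ-HFHC 2 (31.7 to 35.5), with a mean log2 ratio of -4.22 ± 0.35 (SD, n = 2 mice). Over all kept nuclei they made up 65.9% of all Mup UMIs in ND, compared with 17.7% and 31.9% in STZ-HFHC 1 and 2. Mup3 alone gave 86.1% to 89.5% of the summed UMIs of the 4 genes in each library, so sums below mostly report Mup3.

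**Figure D1:**
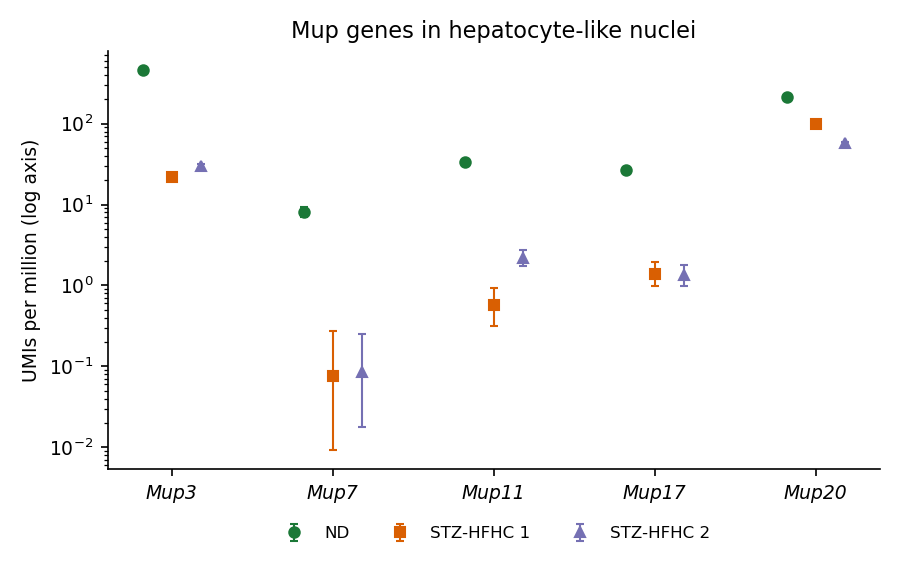
Levels of Mup3, Mup7, Mup11, Mup17 and Mup20 in hepatocyte-like nuclei, in CPM on a log axis, with 1 symbol per library and exact Poisson 95% intervals as bars. The members in ND (circles) lie far above both STZ-HFHC libraries (squares and triangles), while Mup20 runs only from 57.5 to 212 CPM.

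Most of the Mup genes that could be counted were lower in STZ-HFHC, but several were counted only through ND, and the ratios varied widely from copy to copy. A gene was called lower or higher when it had at least 50 UMIs in all hepatocyte-like nuclei and when the log2 ratios of both mice to ND were -1 or less, or both 1 or more. By this rule 11 of the 13 Mup genes with enough UMIs were lower and 0 were higher, beside 5.53% lower and 8.26% higher of all 14842 genes with enough UMIs. The 11 include the 4 chosen genes, whose direction the choice itself fixed. Of the 9 other Mup genes with enough UMIs, 7 were lower and 2 were neither. The minimum was a sum over the libraries. Mup1, Mup9, Mup14 and Mup22 met it only through ND, with 61, 70, 83 and 60 UMIs there. The rule thus let them in by their level in ND, and their call as lower is a description only. Of the other Mup genes, Mup10, Mup20 and Mup21 had at least 50 UMIs in every library and were lower. Mup2 had as many in every library and was neither. With hepatocytes called per nucleus, by markers in each nucleus and not by cluster, 7 Mup genes in all were lower. The share of all genes lower by that call is not given here.

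By counted UMIs Mup20 (darcin) was second to Mup3 in ND and the highest Mup gene in both STZ-HFHC mice. It was at 212 CPM in ND, compared with 99.8 CPM and 57.5 CPM in STZ-HFHC 1 and 2. ND was only 2.13-fold (2.03 to 2.23) and 3.69-fold (3.51 to 3.88) higher, so the UMI ratio of Mup20 to Mup3 went from 0.465 in ND to 4.59 (4.20 to 5.04) and 1.92 in STZ-HFHC 1 and 2. In the other named classes Mup20 was at 128 CPM in ND and at 181 and 101 CPM in STZ-HFHC 1 and 2. Both STZ-HFHC values were above the hepatocyte-like level, and the ratio of Mup20 to Mup3 was 4.96 and 2.39 there. The Mup20 level of STZ-HFHC hepatocyte-like nuclei is therefore not read as expression. Among nuclei with under 0.1% mitochondrial UMIs the log2 ratios of Mup20 were -0.19 and -0.96, and it no longer passed the rule of size. That limit left 9 Mup genes called lower, the 4 chosen genes among them, and the share of all genes lower at that limit is not given here.

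Mup21 was at 32.7, 3.07 and 7.13 CPM in ND, STZ-HFHC 1 and STZ-HFHC 2, with log2 ratios of -3.40 and -2.20. Mup10 was at 8.16, 3.34 and 2.98 CPM, with log2 ratios of -1.28 and -1.45. Mup9 had 70, 9 and 19 UMIs, Mup14 had 83, 2 and 11, and Mup22 had 60, 13 and 11, and all 3 were lower in both mice. Mup1 had 61 UMIs in ND and 0 and 5 in the STZ-HFHC mice. With 3 UMIs taken as the limit that a count of 0 allows, Mup1 was at least 20.8-fold lower in STZ-HFHC 1, and it was 16.7-fold lower (6.77 to 53.2) in STZ-HFHC 2.

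Mup2 and Mup18 did not pass the rule. Mup2 had 98, 59 and 76 UMIs and log2 ratios of -0.76 and -0.82, and Mup18 had 25, 13 and 22 UMIs and log2 ratios of -0.95 and -0.63. Mup4, Mup5, Mup6, Mup8, Mup12, Mup13, Mup15, Mup16 and Mup19 had too few UMIs, from 4 to 30 in ND and from 0 to 4 in either STZ-HFHC library. Position along chromosome 4 did not separate the genes with large and small ratios, since Mup18 and Mup20 lie between Mup17 and Mup3.

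**Figure D2:**
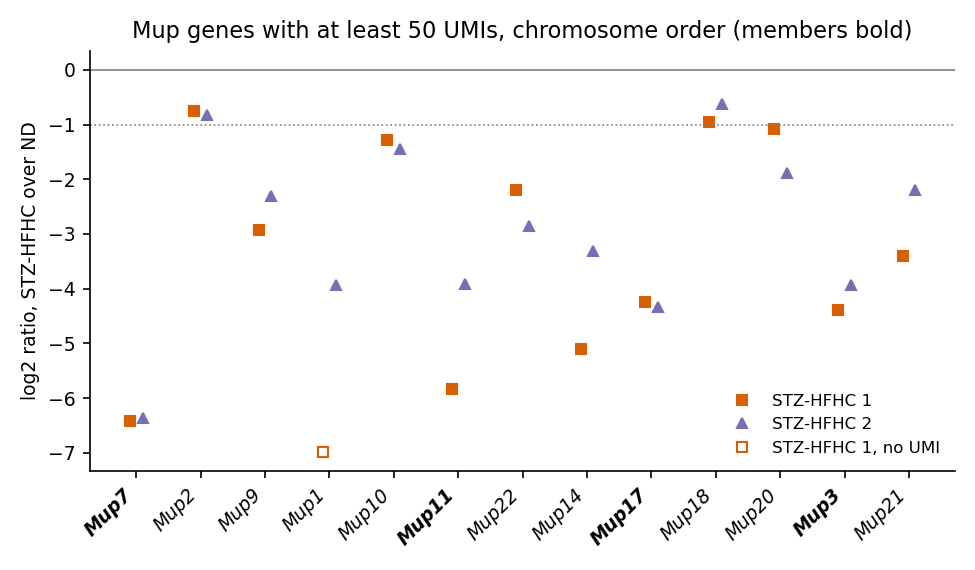
Log2 ratio of each STZ-HFHC library to ND in hepatocyte-like nuclei for the 13 Mup genes with at least 50 UMIs, in the order in which they lie on chromosome 4. Squares and triangles are the 2 mice, the dotted line is the limit of -1, and the open square is Mup1 with 0 UMIs in STZ-HFHC 1, whose height depends on the 0.5 UMI added to each count. Mup2 and Mup18 are the genes with points above the limit in both mice.

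UMIs of the 4 genes were found in every class of nuclei, including those of cells that do not make urinary proteins. The main ND clusters of the endothelial-like, stellate or fibroblast-like and macrophage or monocyte-like classes had 3, 4 and 5 of 12 hepatocyte markers raised. Clusters 19 to 22, which were called hepatocyte-like, had 0. Whether these ND nuclei carried hepatocyte RNA was not tested. In ND the summed level was 298 CPM in endothelial-like nuclei, 309 CPM in stellate or fibroblast-like nuclei, 314 CPM in macrophage or monocyte-like nuclei and 276 CPM in B-like nuclei. The small cholangiocyte-like, T or NK-like and mesothelial-like classes of ND, of 35 to 52 nuclei each, were at 681, 808 and 720 CPM. In the STZ-HFHC libraries these classes lay between 20.8 and 71.6 CPM. ND was above both STZ-HFHC libraries in every class, by intervals that did not overlap.

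Over all other named classes the summed level was 311 CPM in ND (303 to 320), 41.2 CPM in STZ-HFHC 1 (37.3 to 45.4) and 50.8 CPM in STZ-HFHC 2 (46.6 to 55.2). That was 0.593 of the hepatocyte-like level in ND, and 1.73 and 1.51 times it in the STZ-HFHC mice. Among nuclei with under 0.1% mitochondrial UMIs these ratios were 0.940, 1.22 and 1.16. Free RNA in droplets reaches all nuclei, and a level that is no higher in hepatocyte-like nuclei than in cells that should lack the genes is not read as expression. The classes differed in depth, and the hepatocyte-like nuclei of STZ-HFHC 1 held 626 member UMIs in 3018 nuclei compared with 411 in 3864 nuclei of the other classes, those of STZ-HFHC 2 1182 in 4803 compared with 553 in 3929. Free RNA as the source of these UMIs was not tested. In ND nuclei of low mitochondrial share, the level in the other classes was close to the hepatocyte-like level (ratio interval 0.901 to 0.980). Secreted plasma protein genes of hepatocytes, summed over 20 genes, gave ratios of the main other classes to hepatocyte-like nuclei of 0.795 to 0.858 in ND and 0.542 to 0.630 in STZ-HFHC 1 and 0.647 to 0.760 in STZ-HFHC 2 for endothelial-like, stellate or fibroblast-like and macrophage or monocyte-like nuclei. Fewer Mup RNA molecules per hepatocyte and fewer hepatocytes feeding the free RNA cannot be told apart in these background levels.

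**Figure D3:**
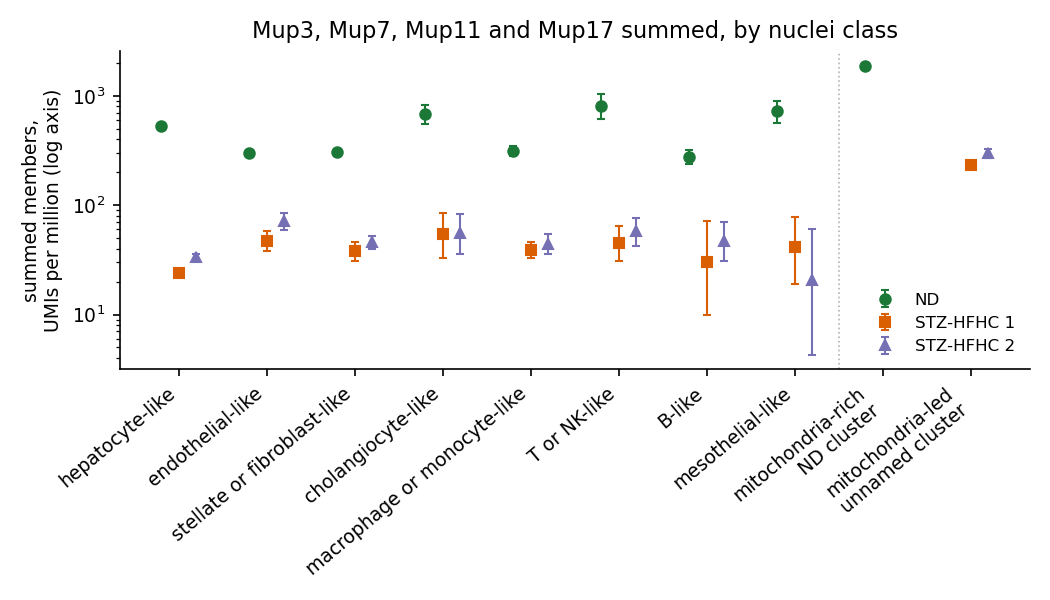
Summed level of Mup3, Mup7, Mup11 and Mup17 in each class of nuclei, in CPM on a log axis, with exact Poisson 95% intervals. Right of the dotted line are the mitochondria-rich ND cluster, which is part of the hepatocyte-like class, and the mitochondria-led unnamed cluster of the STZ-HFHC libraries, which stand at 1859, 234 and 298 CPM.

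The same held for shares of nuclei. With each nucleus thinned to 1000 UMIs, 33.6% of hepatocyte-like nuclei of ND (exact Clopper-Pearson interval 32.4 to 34.9, 1748 of 5196 nuclei) held a UMI of any of the 4 genes. In STZ-HFHC 1 the share was 2.78% (2.22 to 3.43, 83 of 2987) and in STZ-HFHC 2 it was 3.47% (2.97 to 4.03, 165 of 4757). In the other named classes it was 30.4% (28.7 to 32.2) in ND, compared with 4.52% (3.86 to 5.26) and 5.10% (4.40 to 5.87) in STZ-HFHC 1 and 2. The STZ-HFHC hepatocyte shares were thus below those of cells that should lack the genes. Without thinning the hepatocyte-like shares were 71.3%, 16.6% and 18.9% at median depths of 4014, 7872 and 6516 UMIs, and those of the other classes were 71.2%, 8.80% and 12.2% at 4362, 1822 and 1893 UMIs.

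Among hepatocyte-like nuclei of ND the members' level was highest in 1 cluster that was also rich in mitochondrial RNA. Since the genes were chosen as leading a group of ND hepatocyte nuclei, their level there is a description. This cluster held 931 nuclei with a median of 0.756% mitochondrial UMIs, against 0.0272% in the other hepatocyte-like clusters of ND. Its summed level was 1859 CPM (1818 to 1901), compared with 271 CPM (265 to 279) in the other hepatocyte-like clusters and 311 CPM in the other classes. The median nucleus of the cluster had 6 UMIs of the 4 genes and the highest had 45. Only 3.33% of its nuclei had none and 32.1% had 10 or more, while the other hepatocyte-like nuclei of ND had a median of 1, and 34.0% had none. At 1000 UMIs, 75.7% of its nuclei held a member UMI, compared with 26.1% (24.8 to 27.4) of the other hepatocyte-like nuclei.

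The members were not raised equally in this cluster. The UMI ratio of Mup11 to Mup3 was 0.0835 in it and 0.0609 in the other hepatocyte-like clusters, and that of Mup17 to Mup3 was 0.0759 and 0.0388. Mup20 was at 748 CPM in the cluster, 110 CPM in the other hepatocyte-like clusters and 128 CPM in the other classes. The ratio of Mup20 to Mup3 was 0.474 in the cluster and 0.455 in the other classes of ND, close to each other.

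The STZ-HFHC libraries also held such nuclei, in an unnamed cluster of 679 nuclei in STZ-HFHC 1 and 344 in STZ-HFHC 2 that was led by mitochondrial genes. Its raised markers were 5 of 14 of macrophages or monocytes and 4 of 12 of hepatocytes, and a hemoglobin gene (Hbb-bs) was among its leading genes, so it is not taken as the counterpart of the ND hepatocyte cluster. The summed members were at 234 CPM (214 to 255) and 298 CPM (271 to 326) in STZ-HFHC 1 and 2, well above both the hepatocyte-like nuclei and the other classes of the same mice. Within the STZ-HFHC mice, Mup3 was higher in this cluster than in hepatocyte-like nuclei by 3.23 and 3.01 log2 units, Mup11 by 4.37 and 3.82 and Mup17 by 3.67 and 4.17. Of all genes with enough UMIs, 13.7% were higher by at least 1 log2 unit in both mice. These 3 genes also led the mitochondria-rich ND cluster beside mitochondrial genes, by level over the other clusters, STZ-HFHC ones included. The contrast is thus not independent of how the genes were chosen and is a description. Mup7 had 0 and 2 UMIs there and was not compared.

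Of the 20 secreted plasma protein genes, 11 were higher in the same cluster in both mice and 9 were neither. Mup20 was higher by 3.47 and 3.30 log2 units, and the apolipoprotein genes Apoe (3.46 and 3.50), Apoa2 (3.27 and 3.42) and Apoa1 (2.73 and 2.69) by similar amounts. Alb, at 0.50 and 0.49, was among the 9 that did not pass. Mup21, with 10 and 23 UMIs in the cluster, had log2 ratios of 0.64 and 1.13 and did not pass. Mup10 (log2 ratios of -0.42 and -0.85) and Mup2 (-0.98 and 0.46) did not pass, but had only 5 and 2 and 2 and 4 UMIs in the cluster. Mup9, with 5 and 11 UMIs there, had log2 ratios of 2.80 and 3.79 and lay under the minimum of UMIs. The ratio of Mup20 to Mup3 in this cluster was 5.40 and 2.35 in STZ-HFHC 1 and 2, so the excess of Mup20 over Mup3 held there as well.

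Hepatocyte-like nuclei and this cluster were put together and divided by their share of mitochondrial UMIs. In ND the summed members were at 262 CPM in nuclei under 0.1%, 818 CPM from 0.1% to 0.5%, 1780 CPM from 0.5% to 1% and 3483 CPM from 1% to 5%. In STZ-HFHC 1 the same steps were 22.7, 61.5, 201 and 523 CPM, and in STZ-HFHC 2 they were 32.3, 74.5, 284 and 598 CPM. The level was higher at each step in every library. ND stayed above both mice in each step, by 11.5-fold and 8.10-fold in the lowest and by 6.66-fold and 5.82-fold in the highest. The upper steps compare different kinds of nuclei, since above 0.5% nearly all STZ-HFHC nuclei came from the mitochondria-led cluster, while those of ND were hepatocyte-like, 379 of 382 in the highest step. The other named classes showed a like order, at 246, 655, 1783 and 3094 CPM in ND, at 27.2, 39.1, 85.1 and 168 CPM in STZ-HFHC 1 and at 36.6, 66.4, 150.1 and 337 CPM in STZ-HFHC 2, so the higher level at high mitochondrial share was not particular to hepatocyte-like nuclei.

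Mup20 behaved differently when nuclei of like mitochondrial share were compared. From the lowest to the highest step it was at 107, 328, 711 and 1402 CPM in ND, at 97.4, 280, 868 and 2434 CPM in STZ-HFHC 1 and at 56.5, 138, 553 and 1027 CPM in STZ-HFHC 2. ND was 1.09-fold above STZ-HFHC 1 in the lowest step and at 0.576 of it in the highest, while against STZ-HFHC 2 it was 1.29-fold to 2.39-fold higher throughout. In nuclei under 0.1% the log2 ratios of the chosen genes to ND were -3.52 and -3.06 for Mup3, -5.43 and -5.40 for Mup7, -4.44 and -2.71 for Mup11 and -2.84 and -2.73 for Mup17. What part of the difference between the libraries lies with the share of nuclei rich in mitochondrial RNA was not tested beyond these values.

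**Figure D4:**
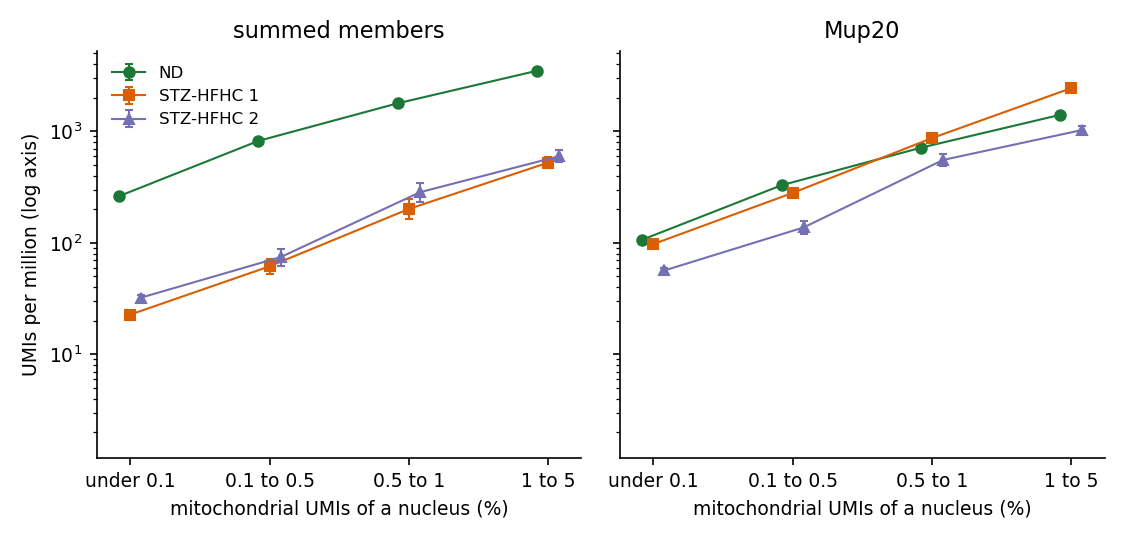
Summed members (left) and Mup20 (right) in hepatocyte-like nuclei and the mitochondria-led cluster, in CPM on a log axis, by the share of mitochondrial UMIs of the nucleus, with exact Poisson 95% intervals. The members in ND lie above both STZ-HFHC libraries in all 4 steps, whereas the Mup20 lines of ND and STZ-HFHC 1 cross.

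Liver lobules run from the portal vein, where blood enters, to the central vein, and hepatocytes along this axis use different genes. Hepatocyte-like nuclei of each library were ranked by pericentral minus periportal marker genes, 12 of each, and split into 3 equal parts. In ND, Mup3 was nearly even, at 461 CPM in the periportal part, 462 CPM in the middle and 444 CPM in the pericentral part, a pericentral to periportal ratio of 0.964 (0.922 to 1.01). Mup11 ran from 11.9 over 29.1 to 62.8 CPM, a ratio of 5.30 (4.30 to 6.58). Mup17 ran from 10.4 over 15.3 to 58.5 CPM, a ratio of 5.60 (4.49 to 7.05). In the same nuclei the copies thus differed in how they lay along the lobule, beside 2.97%, 3.31% and 4.62% of all genes with enough UMIs that were at least 2-fold higher in the pericentral part of ND, STZ-HFHC 1 and STZ-HFHC 2.

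Mup7 was weaker in this respect, with 5.65, 9.76 and 9.19 CPM and a ratio of 1.63 (1.12 to 2.36). Among other Mup genes of ND, Mup9 had a ratio of 13.7 (5.02 to 52.3), Mup10 of 4.80 (3.20 to 7.40) and Mup2 of 3.24 (1.86 to 5.88), all higher near the central vein. Mup20 was lower there, at 0.781 (0.731 to 0.834). Among ND nuclei with under 0.1% mitochondrial UMIs the ratio was 3.06 (2.23 to 4.24) for Mup11, 1.46 (1.01 to 2.11) for Mup17, 1.04 for Mup7, 5.57 for Mup10, 3.58 for Mup2 and 0.933 for Mup3. With this limit 2.83%, 3.35% and 4.45% of all genes were at least 2-fold higher in the pericentral part of the libraries, in the same order. The gradients of Mup10 and Mup2 were as large in these nuclei, while that of Mup11 was smaller and that of Mup17 much smaller. Outside the mitochondria-rich cluster the summed members of ND hepatocyte-like nuclei, at 271 CPM, were no higher than in the other named classes, at 311 CPM. Whether the members' ratios in those nuclei reflect expression was not tested.

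In the STZ-HFHC mice UMIs counted to Mup10 and Mup2 were again higher in the pericentral part. The ratio of Mup10 was 3.90 (2.08 to 7.84) and 3.05 (1.86 to 5.17) in STZ-HFHC 1 and 2, and that of Mup2 was 2.64 (1.31 to 5.66) and 1.97 (1.12 to 3.56). Mup3 was lower in the pericentral part, with ratios of 0.674 (0.549 to 0.826) and 0.769 (0.665 to 0.887). Mup11 had a ratio of 0.992 (0.557 to 1.75) in STZ-HFHC 2, where it could be counted. In these mice the members' level was no higher than in classes that should lack them, and whether the ratios of Mup3 and Mup11 reflect expression was not tested.

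**Figure D5:**
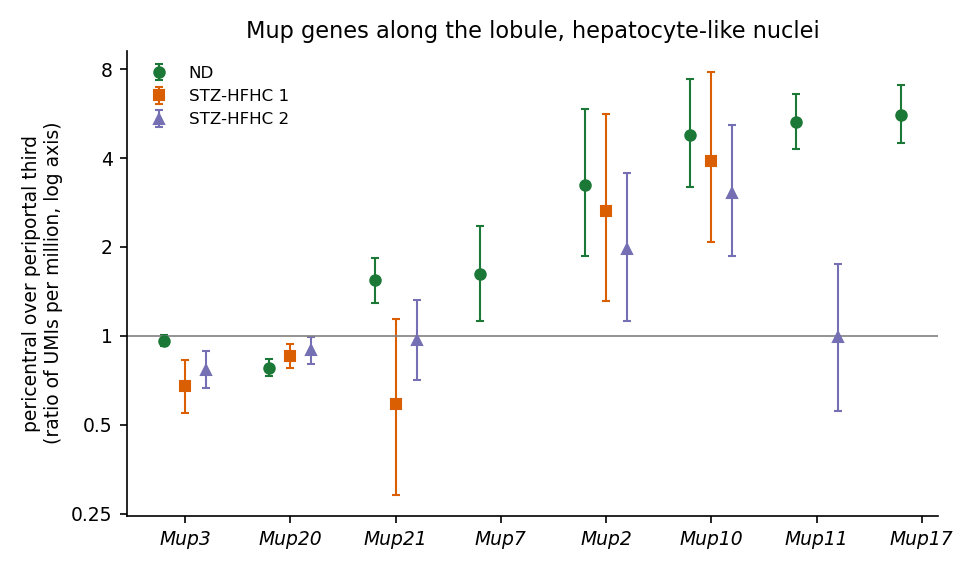
Ratio of the pericentral to the periportal part of hepatocyte-like nuclei for Mup3, Mup20, Mup21, Mup7, Mup2, Mup10, Mup11 and Mup17. The axis is a log axis, with 95% intervals from counts and 1 symbol per library that had enough UMIs. Mup1, Mup14, Mup22 and Mup9, whose ND ratio of 13.7 was the highest, had enough UMIs in ND but are not drawn. Among the genes drawn, the ND points run from 0.781 for Mup20 and 0.964 for Mup3 to 5.30 for Mup11 and 5.60 for Mup17, and Mup10 and Mup2 lie above 1 in all 3 libraries.

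Of 15 genes of growth hormone signalling with enough UMIs, 1 was lower and 0 were higher, which is near the 5.53% lower and 8.26% higher of all genes. The median log2 ratio was -0.08 and -0.11 in STZ-HFHC 1 and 2, beside 0.09 and 0.10 over all genes. The growth hormone receptor gene Ghr was at 5530, 3282 and 4542 CPM in ND, STZ-HFHC 1 and STZ-HFHC 2, and Stat5b was at 320.3, 282 and 269 CPM. Log2 ratios of Jak2 were 0.56 and 0.48, of Stat5a -0.67 and -0.52, and of Igf1, the hormone made under growth hormone, -0.08 and 0.39. Socs2 and Cish, feedback inhibitors switched on by STAT5, had log2 ratios of -0.42 and -1.67 and of 1.70 and -0.03, without a common direction. Bcl6, a repressor that is more active in males, had -0.52 and -0.55, and Cux2, a female-biased factor, had 2.80 and -1.01. The gene that was lower was Igfals, which encodes a carrier of IGF1, at -1.12 and -1.07, and in nuclei under 0.1% mitochondrial UMIs its ratios of -0.90 and -0.90 did not pass.

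Other known regulators of Mup genes showed 0 of 13 lower and 3 higher, beside 5.53% and 8.26% of all genes, with median log2 ratios of 0.15 and 0.00. Zhx2, a factor needed for normal Mup expression, had log2 ratios of 0.21 and 0.26, and Hnf4a had -0.26 and 0.00. Cebpa had 0.03 and -0.38, the glucocorticoid receptor gene Nr3c1 0.57 and 0.14, and the thyroid hormone receptor gene Thrb 0.15 and 0.08. Foxo1, which insulin signalling keeps out of the nucleus, was higher at 1.34 and 1.17, as was Ppargc1a, a coactivator of fasting genes, at 1.63 and 2.27. The clock output gene Dbp was higher at 3.65 and 3.22 from a low level of 0.777 CPM in ND, and the hour of collection is not given in the sources used here.

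Of 20 male-biased liver genes known to respond to growth hormone, 9 were lower and 1 was higher, beside 5.53% and 8.26% of all genes, with median log2 ratios of -1.56 and -0.96. Elovl3, which lengthens fatty acids, was at 193 CPM in ND, compared with 2.73 and 9.99 in STZ-HFHC 1 and 2. Serpina1e, an alpha-1-antitrypsin copy whose reads may be split with its relatives, was at 261 CPM in ND, compared with 0.266 and 1.65 in STZ-HFHC 1 and 2. Hsd3b5, a steroid reductase gene, had 49, 2 and 3 UMIs, a ratio of ND to STZ-HFHC of 25.1 (6.58 to 213) and 22.3 (7.21 to 112). It met the summed minimum of UMIs almost wholly through ND, so its call as lower is a description only. Cyp2d9 was at -2.45 and -1.88 and Serpina3k at -2.50 and -1.76 on the log2 scale.

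Not all male-biased genes followed. Cyp4a12a, a male-specific arachidonic acid hydroxylase gene, had log2 ratios of -0.07 and -0.47, and Cyp7b1, an oxysterol hydroxylase gene, had -1.22 and -0.76, so neither passed the rule. Gstp2, a glutathione transferase with a close copy, was higher at 1.86 and 2.22.

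Female-biased liver genes were mostly higher. Of 14 with enough UMIs, 8 were higher and 2 lower, beside 8.26% and 5.53% of all genes, with median log2 ratios of 3.53 and 2.65, and with genes at 0 UMIs in a library set at their bound the medians were 3.53 and 1.36. Cyp2b9 was at 0.583 CPM in ND, compared with 556 and 325 in STZ-HFHC 1 and 2. Sult1e1, an estrogen sulfotransferase gene, was higher by 3.94 and 5.79 log2 units. Cyp2a4, a steroid hydroxylase gene, had 0 UMIs in ND and was at least 411-fold and 96.3-fold higher, with 3 UMIs as the limit. The minimum of UMIs was a sum over the libraries, so Cyp2b9 and Cyp2a4 met it only through the STZ-HFHC libraries. Their calls as higher, and the count of 8 that holds them, are a description only. Cyp2b9 and Cyp2a4 have close copies and are uncertain as single genes. Hamp2, a hepcidin copy, was lower at -2.45 and -3.77, and Cyp4a14 was lower at -1.20 and -2.28.

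Other lipocalins of liver moved in both directions. Of 8 with enough UMIs, 4 were lower and 3 higher, beside 5.53% and 8.26% of all genes, with median log2 ratios of -0.97 and -1.26. The lower ones were C8g (-3.08 and -2.88), a part of the membrane attack complex, Apom (-1.80 and -2.64), a carrier of sphingosine phosphate, Ambp (-1.27 and -1.65) and Rbp4 (-1.05 and -1.02), the plasma carrier of retinol. The higher ones were Lcn2 (4.95 and 3.29), an iron-sequestering acute-phase protein, and the acute-phase genes Orm3 (3.02 and 3.76) and Orm2 (2.57 and 1.45), whose copies are close. Ambp and Rbp4 did not pass in nuclei under 0.1% mitochondrial UMIs.

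Genes of secreted plasma proteins were lower in 12 of 20 cases and higher in 0, beside 5.53% and 8.26% of all genes, with median log2 ratios of -1.42 and -1.54. Apoa1 was at -2.61 and -2.74, Apoa2 at -2.40 and -2.88, Apoe at -2.23 and -2.51, Serpina1a at -2.28 and -2.17, Serpina1c at -2.72 and -2.03 and Ttr, which carries thyroid hormone, at -1.29 and -1.61. Alb, at -0.36 and -0.79, did not pass. In nuclei under 0.1% mitochondrial UMIs, 21 genes over all 6 lists were lower in place of 28, with no share of all genes at that limit given here. In hepatocyte-like nuclei and the mitochondria-led cluster together, the summed secreted plasma protein genes were higher at high mitochondrial share. From the lowest to the highest step they went from 16389 to 58644 CPM in ND. In STZ-HFHC 1 they went from 9721 to 31600 CPM and in STZ-HFHC 2 from 8358 to 23589 CPM. The other lists are not given by mitochondrial share here, and the part of that share was not tested.

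Across 24 profiles, 8 classes in each of 3 libraries, the genes most like the summed members were named by Pearson's r of log2(CPM + 1) over 13522 genes. They were Serpina1e (0.97), Apoa1 (0.96), Serpina1c (0.95), Serpina3k (0.94), Bhmt (0.93), Apoa2 (0.93), Clec2d (0.92) and the nuclear noncoding RNA Malat1 (0.92). The Serpina and Apoa genes among them encode secreted proteins, Bhmt encodes a methyltransferase of the methionine cycle and Clec2d encodes a ligand of a natural killer cell receptor. The profiles of a library come from 1 mouse and differ in depth, and free RNA can reach all of them. How far these values reflect the step between ND and STZ-HFHC was not tested. Mup21 had an r of 0.75 and Mup20 of 0.61.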

How the data were processed

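Chromium 3′ droplet libraries of liver nuclei were made from 1 ND and 2 STZ-HFHC mice. The authors deposited unnormalised UMI counts of each library, by gene and barcode, and the submitters' processing notes name Cell Ranger 7.0.1 and mm10. Whether intronic reads were counted, and any removal of free RNA, is not given in the sources used here. Total depth was 77617520 UMIs over 9424 barcodes in ND, 73942732 over 9923 in STZ-HFHC 1 and 72934861 over 11642 in STZ-HFHC 2. Groups were taken from the sample titles.

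Barcodes with 200 to 5000 genes and at most 5% mitochondrial UMIs, the limits stated in the study, were kept. The study reports 30989 cells after filtering, which is the number of barcodes in the data before these limits. Here the limits kept 28336, so the nuclei used are not the same set. Clustering was done in Scanpy 1.11.5 with 2000 variable genes, 30 principal components, 15 neighbours and Leiden resolution 1, without Mup genes. Clusters were named from 8 marker lists by a rule set after the clusters had been seen, which replaced a first rule. A cluster took the class with most markers raised at least 2-fold over the median of the other clusters. Cluster 8, in which 2 classes were raised alike, and cluster 13, led by mitochondrial genes, stayed unnamed. So did clusters 16 and 17, with only 4 and 3 of 14 macrophage or monocyte markers raised. Raised markers of a second class did not by themselves leave a cluster unnamed. Clusters 2, 3 and 5 took other names with 3, 4 and 5 of 12 hepatocyte markers raised. Clusters 9 and 18 to 22, with at most 1 raised hepatocyte marker, were called hepatocyte-like because no other class had 3 raised markers. Detection of hepatocyte markers was also required, but every cluster met this condition. Scrublet's automatic threshold called only 0, 3 and 1 nuclei, so doublets were kept, and leaving out the 8% highest scores in each library was an alternative.

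UMIs were summed per library and class. CPM is per 1000000 UMIs of the same nuclei, with exact Poisson 95% intervals. Intervals of ratios are exact intervals of 2 counts. Log2 ratios used 0.5 added UMI. With 1 ND library no test was made, and a rule of size was applied (at least 50 UMIs, log2 ratio of at least 1 in size in both mice). The 50 UMIs were a sum over the libraries, so genes of the lists could meet it through the libraries where they were high. Counts over the lists are therefore a description. The steps were tested on simulated data. SD is over the 2 STZ-HFHC mice, and whether they shared a litter or batch is not stated. The members and gene lists were chosen with earlier results of these data known. The text names the 4 genes, all other Mup genes, a fixed set of regulators and sex-biased genes, from each list up to 5 genes in each direction by the smaller of both log2 ratios, and the 8 genes most like the members; 2 genes of the fixed set are not reported here. Alternatives with limits on mitochondrial UMIs or on the mitochondria-rich clusters were chosen after seeing the data. Normalisation alternatives used edgeR 4.0.16 TMM factors and median-of-ratios factors. Sequence sharing was computed over transcripts, not over gene bodies or proteins as first planned, and promoters came from RefSeq, which matched 14 of 22 Mup genes.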

Additional observations from a re-analysis of the deposited data

Results flagged for a closer look

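Barcodes above the limit of 5% mitochondrial UMIs, which entered only the alternative without limits on barcodes, held more Mup RNA per UMI than any class of kept nuclei of the same library. The summed members were at 6538 CPM (5955 to 7163) in the 41 such barcodes of ND, at 539 CPM (422 to 678) in the 88 of STZ-HFHC 1 and at 1232 CPM (1080 to 1400) in the 109 of STZ-HFHC 2. The limits that a count of 0 allows were 42.5, 22.2 and 15.7 CPM. Mup20 was at 2468, 2385 and 2674 CPM in the same barcodes, nearly even between the libraries, whereas the members differed. What these barcodes are was not tested.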

How the results depend on the processing

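No paired analysis was possible because the single ND mouse shares no pairing with the STZ-HFHC mice, and the comparisons came from no test. The mean log2 ratio of the summed members, -4.22, was -3.60 with hepatocytes called per nucleus, -3.65 with the mitochondria-led cluster added, -3.28 without the mitochondria-rich ND cluster, -3.39 over all nuclei and -3.30 in nuclei under 0.1% mitochondrial UMIs, and -4.46 to -3.97 with either STZ-HFHC mouse left out. The cause of these shifts was not tested. The 11 lower Mup genes became 7 with hepatocytes called per nucleus and 19 with no minimum of UMIs, and were 11 with either mouse left out, when 0 were higher. The 19 take in genes near the floor, such as Mup4 with 4, 1 and 0 UMIs. The 28 lower list genes became 10 at a log2 limit of 2, and 34 to 35 lower and 15 to 19 higher with a mouse left out. Shares of all genes called under these alternatives are not given here, so none of these counts is set against a background. The ratio of other classes to hepatocyte-like nuclei was 0.568 in ND and 1.68 in STZ-HFHC 2 without the highest doublet scores, 0.456 and 1.36 without limits on barcodes, and 0.940, 1.22 and 1.16 under 0.1% mitochondrial UMIs. Shares of nuclei with a member UMI were 49.0%, 4.34% and 6.72% at 2000 UMIs and 71.3%, 16.6% and 18.9% without thinning, where more depth is kept by construction, 2.17% in STZ-HFHC 1 without the highest doublet scores and 24.6% in ND under 0.1% mitochondrial UMIs. The log2 pericentral to periportal ratio of the summed members was 0.23 in ND and -0.41 and -0.33 in the STZ-HFHC mice. It turned to 0.0248 in STZ-HFHC 2 with the score from thinned nuclei and to 0.0185 with pericentral genes alone, and in ND it was 0.33 with thinned nuclei and 0.0158 under 0.1% mitochondrial UMIs, so no order along the lobule is read from the sum. By Spearman's rho, 3 of the 8 genes most like the members were kept. Of 117 alternatives for these results 89 kept the value within its spread, and of 250 for single genes and lists 200 did. With 1 ND mouse, depth is not the main limit for Mup3, while Mup7 rests on 2 and 3 UMIs in the STZ-HFHC libraries.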
